A study of Mus musculus with 16 samples.

Results

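The SOCS family comprises 8 genes, Cish and Socs1 to Socs7, which were taken by their gene symbols as 8 of the 23337 rows of the count table. They were followed in mouse blood neutrophils that carried or lacked the lymphotoxin beta receptor (LTβR) and that were labelled unstimulated or stimulated. Read counts per gene came from 16 bulk RNA-Seq libraries. The comparisons ask whether these feedback inhibitors differed with the treatment label, whether they differed with the genotype, and whether the genotype altered their response to treatment.

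Control neutrophils came from Ltbr fl/fl littermates without Cre, and LTβRΔN neutrophils from Ltbr fl/fl mice crossed to Mrp8-Cre, in which the promoter of the calprotectin subunit gene S100a8 drives recombination in the neutrophil lineage. Both groups thus carried the floxed allele. All mice were 8 weeks old and of the C57/Bl6 strain, and neutrophils were purified from blood by negative selection on magnetic beads. Of the control libraries 3 were labelled unstimulated and 4 stimulated, and of the LTβRΔN libraries 4 and 5, numbered here in accession order within each group. By the protocol, cells were cultured for 2 h with a cytokine mix of 100 ng/ml TNF, 50 ng/ml IL-6 and 100 ng/ml GM-CSF, to which 500 ng/ml of LIGHT, a soluble ligand of LTβR, was either added or not. The series design speaks of culture with or without inflammatory cytokines, and no label gives the agents for a single library. The groups are therefore called by the labels, stimulated and unstimulated, and whether the unstimulated cells had received the cytokines was not determined. Nothing states that libraries of one group came from separate mice, so p-values measure the spread between libraries. A second number in the column names, whose meaning is not stated, was shared by 7 pairs of unstimulated and stimulated libraries within a genotype. The main fit and the permutation tests treated all libraries as unpaired, and a fit with this number as a block is given below.

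Library totals ranged from 1094335 to 11932653 counts, and the median was lowest in stimulated LTβRΔN neutrophils at 2408608. Ltbr, the targeted gene, was at 84.6 to 154 CPM (counts per 1000000 counts of a library, scaled by edgeR's TMM factors) in control libraries and at 0.705 to 18.1 CPM in LTβRΔN libraries. The 9 neutrophil markers in the table summed to 47173 to 77388 CPM in every library. B cell markers summed to at most 1.6 CPM, with Ms4a1, Cd79b and Pax5 at 0 throughout. T cell markers summed to 4.75 to 16.4 CPM, with Cd3e at 0, and erythroid markers to at most 5.95 CPM, with Hba-a1 and Hba-a2 at 0. Eosinophil markers summed to at most 11 CPM, with Prg2, Epx and Ear1 at 0, and monocyte markers to 341 to 563 CPM. Stimulated control replicate 3 stood apart with 764 CPM of immature neutrophil and 202 CPM of platelet markers, against 40.0 to 317 and 5.19 to 45.3 CPM in the other 15 libraries. Of the 7 immature neutrophil markers in the table, Elane, Mpo and Ctsg were at 0 in every library, this one included. Cish, Socs1 and Socs3 were also called with treatment without that library. The summed level of none of the 8 marker lists separated any pair of groups compared here. The sequencing index of the titles nearly followed the treatment label, since S520 was borne by 2 unstimulated control and all 4 unstimulated LTβRΔN libraries and S521 by the other 10.

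SOCS proteins are feedback inhibitors of cytokine receptors that signal through Janus kinases (JAK) and STAT transcription factors. A cytokine activates STAT proteins, these raise transcription of SOCS genes, and the SOCS protein then binds phosphorylated receptors or kinases through its SH2 domain and recruits a cullin-based ubiquitin ligase through its SOCS box. GM-CSF acts mainly through STAT5, of which Cish is a classical target, and IL-6 acts through gp130 and STAT3, of which Socs3 is one. In neutrophils Socs3 is best known as the brake on G-CSF receptor signaling.

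STAT dimers bind a palindrome, and promoter sequence is shown for the members whose transcripts rose, to place such sites beside them. RefSeq promoters, from 250 bases before to 50 bases after the start site on GRCm38.p6, were at hand for 4 of the 8 members, Cish, Socs1, Socs3 and Socs4. The 4 motifs searched on both strands were chosen with these sequences in view: the STAT palindrome TTCNNNGAA, its wider form TTCNNNNGAA, the interferon regulatory factor (IRF) element GAAANNGAAA and the AP-1 site TGANTCA. Positions are counted from 1 at the start site, with -1 just before it, and the capitals mark the matches in chr9:107296655-107296684 on the + strand (Cish), chr11:117969487-117969546 on the - strand (Socs3) and chr16:10785587-10785646 on the - strand (Socs1).
Cish: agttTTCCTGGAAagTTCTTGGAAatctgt
Socs3: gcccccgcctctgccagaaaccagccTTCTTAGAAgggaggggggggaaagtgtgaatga
Socs1: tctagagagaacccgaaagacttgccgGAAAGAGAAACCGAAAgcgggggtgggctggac

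Cish held 2 copies of TTCNNNGAA, starting at positions 1 and 12, and Socs3 held 1 copy, starting at -154. The same palindrome occurred in 8.30% of 32851 RefSeq promoters of this length. Socs1 held no palindrome and 2 overlapping copies of GAAANNGAAA, starting at -83 and -77, a motif present in 3.44% of promoters. TTCNNNNGAA (6.95% of promoters) and TGANTCA (7.81%) were in none of the 4 member promoters, and Socs4 held none of the 4 motifs. In the GENCODE annotation used for exon lengths, Cish starts at 107296026 and Socs3, on the - strand, at 117970047. The matches of both thus lie inside those genes, while the matches of Socs1 lie before its gene. A match describes the letters only, and which start these cells used was not determined.

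**Figure D1:**
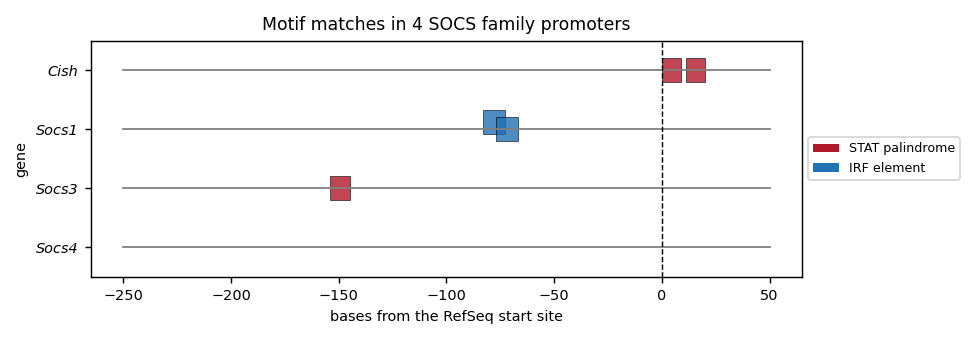
Position of motif matches in the RefSeq promoters of Cish, Socs1, Socs3 and Socs4. The x axis gives bases from the start site (dashed line), grey lines the 300 bases searched, red boxes the palindrome TTCNNNGAA and blue boxes the element GAAANNGAAA, which are drawn at slightly different heights in Socs1 because they overlap. The 2 copies in Cish lie just after the RefSeq start site, the copy in Socs3 lies at -154 and Socs4 has no box.

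Of the 7 members that could be tested 3, Cish, Socs3 and Socs1, rose with the treatment label in both genotypes, and no member fell. Cish rose 388-fold in control and 266-fold in LTβRΔN neutrophils, Socs3 rose 16.3-fold and 12.1-fold, and Socs1 rose 6.0-fold and 3.20-fold. Socs4, Socs5, Socs6 and Socs7 did not pass the test in either genotype, and Socs2 was too low to be tested. A gene was called at an adjusted p under 0.05 in edgeR's quasi-likelihood test, which called 3.48% of the 9213 tested genes in control neutrophils (2.82% higher and 0.662% lower) and 3.73% in LTβRΔN neutrophils (2.98% higher and 0.749% lower). In each genotype 3 of 7 is a larger share than that of all genes. The family was chosen with earlier results of these data known, so this share is no test of the family. The median log2 fold change of the 7 was 1.29 in control and 0.13 in LTβRΔN neutrophils, against -0.024 and -0.028 over all tested genes. Each median is the value of 1 member that was not called, Socs7 in control and Socs4 in LTβRΔN neutrophils, and does not describe a shift of the whole family.

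Cish encodes CIS, which competes with signaling proteins for docking sites on receptors that activate STAT5. In unstimulated control neutrophils Cish was at 1.67, 0.793 and 0.561 CPM in replicates 1 to 3, from 22, 7 and 4 counts. In stimulated control neutrophils it was at 589, 468, 409 and 272 CPM in replicates 1 to 4. The lowest stimulated library was 162-fold above the highest unstimulated one, so that the groups did not overlap, as held for 6.58% of tested genes in this direction.

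In unstimulated LTβRΔN neutrophils Cish was at 0.773, 5.60, 2.94 and 0.426 CPM in replicates 1 to 4, with 5 to 13 counts. The stimulated LTβRΔN libraries held 240, 475, 471, 433 and 274 CPM in replicates 1 to 5. These groups also stood apart, by 42.8-fold between the nearest libraries, as held for 4.61% of tested genes in this direction. The highest unstimulated value came from replicate 2, the library with the lowest total of the series.

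The fitted log2 fold change of Cish with treatment was 8.60 (SE 0.507, adjusted p = 2.68e-11, edgeR) in control and 8.05 (SE 0.462, adjusted p = 1.36e-11, edgeR) in LTβRΔN neutrophils, with 95% intervals of 7.55 to 9.65 and 7.10 to 9.01. Its fold change ranked 6th of the 9213 tested genes in control and 5th in LTβRΔN neutrophils. Exact two-sided permutation tests of log2(CPM + 0.5), of which 32 were computed for 8 members and 4 group comparisons, gave Cish the smallest p that these designs allow, 0.0286 for 4 libraries against 3 and 0.00794 for 5 against 4. The unstimulated side of the fold rests on at most 22 counts per library, and 1 library could move it: the log2 fold change was 9.26 without unstimulated control replicate 1 and 7.41 without unstimulated LTβRΔN replicate 4. Cish exons share 479 bases with an antisense transcript and 261 bases with a pseudogene on the opposite strand, neither of which is a row of the table, and the strand setting of the counting is not given in the sources used here.

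Socs3 blocks JAK catalysis while bound to gp130, the G-CSF receptor and related chains. It was at 789, 780 and 1608 CPM in unstimulated control replicates 1 to 3 and at 13853, 17278, 18119 and 19692 CPM in stimulated control replicates 1 to 4. The highest unstimulated value came from replicate 3, the 1 unstimulated library with index S521. The groups did not overlap, and the nearest libraries were 8.61-fold apart.

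In LTβRΔN neutrophils Socs3 was at 2164, 872, 1162 and 1716 CPM in unstimulated replicates 1 to 4. Stimulated replicates 1 to 5 held 17682, 17197, 17286, 18505 and 18740 CPM. The 5 stimulated libraries lay within 1.09-fold of each other, while the 4 unstimulated ones spanned 2.48-fold, and the nearest libraries of the groups were 7.95-fold apart.

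The log2 fold change of Socs3 was 4.03 (SE 0.280, adjusted p = 4.31e-10, edgeR) in control and 3.59 (SE 0.238, adjusted p = 1.72e-10, edgeR) in LTβRΔN neutrophils. Its exact permutation p was again the smallest possible, 0.0286 and 0.00794. In stimulated libraries Socs3 alone took 1.31 to 1.81% of all counts. It was also ranked per kilobase of exon among the 20892 symbols that had an exon length. Its rank was 7th to 10th in every stimulated library and 73rd to 181st in the unstimulated ones.

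Socs1 inhibits JAK enzymes directly and restrains interferon signaling in particular. Its unstimulated control libraries held 5.02, 4.31 and 7.02 CPM in replicates 1 to 3, and the stimulated ones held 25.7, 33, 33.4 and 38.6 CPM in replicates 1 to 4. In LTβRΔN neutrophils the unstimulated values were 10.2, 6.40, 14.0 and 11 CPM in replicates 1 to 4, and the stimulated values were 22.4, 45.2, 29.6, 44.9 and 27.5 CPM in replicates 1 to 5. Stimulated libraries were above all unstimulated ones in both genotypes, by 3.66-fold between the nearest control libraries and by 1.6-fold between the nearest LTβRΔN libraries.

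The log2 fold change of Socs1 was 2.58 (SE 0.370, adjusted p = 4.05e-05, edgeR) in control and 1.68 (SE 0.317, adjusted p = 0.0013, edgeR) in LTβRΔN neutrophils, with exact permutation p of 0.0286 and 0.00794. Its fold change ranked 245th and 397th of 9213. The call of Socs1 was lost when the index entered the fit, with log2 fold changes of 2.21 (adjusted p = 0.0614) and 1.09 (adjusted p = 1.0).

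With the index in the fit, 2 of the 7 tested members were called in each genotype, against 1.7% of all tested genes in control and 0.857% in LTβRΔN neutrophils. The index term rests on 1 library, unstimulated control replicate 3, the one that separates index from treatment. Socs3 stayed called with log2 fold changes of 3.42 in control and 2.56 in LTβRΔN neutrophils, and Cish with 9.54 and 9.23. The S521 control libraries alone hold 1 unstimulated library, which gives no spread on that side. Among them the log2 fold changes were 9.53 for Cish, 3.42 for Socs3 and 2.21 for Socs1, and no test is read from them. All 4 unstimulated LTβRΔN libraries had index S520 and all 5 stimulated ones S521, so for LTβRΔN neutrophils index and treatment cannot be told apart. In bulk RNA a change in the share of expressing cells and a change in RNA per cell cannot be told apart either.

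**Figure D2:**
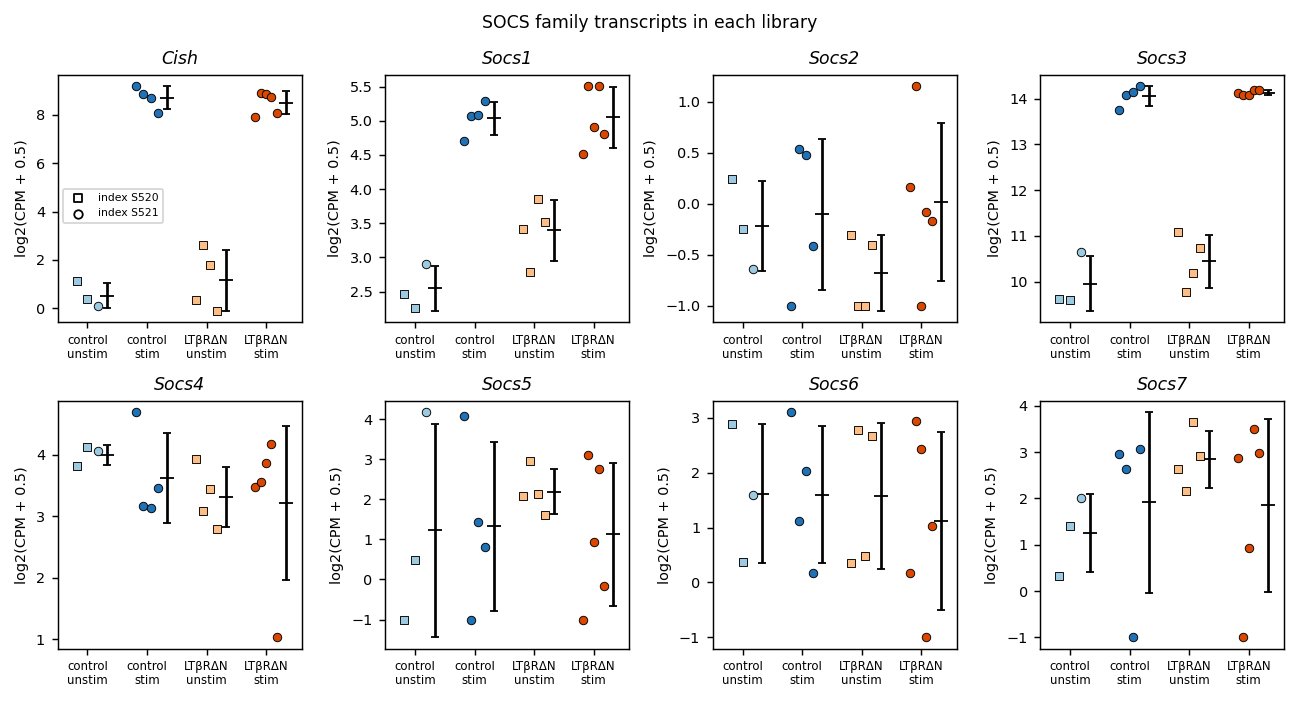
Levels of the 8 SOCS family transcripts in each of the 16 libraries, as log2(CPM + 0.5), with a separate y axis for each gene. Squares are libraries with index S520 and circles those with S521, and the bar beside each group gives the mean and SD of the 3 to 5 libraries. Stimulated and unstimulated libraries stand apart for Cish, Socs1 and Socs3, and overlap for the other 5 genes.

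Socs4 and Socs5 form a pair with long N-terminal regions that has been linked to degradation of the EGF receptor. Socs4 was at 13.6, 17 and 16.1 CPM in unstimulated and 25.4, 8.54, 8.32 and 10.5 CPM in stimulated control neutrophils. In LTβRΔN neutrophils Socs4 was at 14.8, 8.00, 10.4 and 6.47 CPM unstimulated and 10.6, 11.3, 14.1, 17.5 and 1.55 CPM stimulated. Groups overlapped in both genotypes, and the log2 fold changes with treatment were -0.24 (95% interval -1.4 to 0.92) and 0.13 (-0.94 to 1.20).

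Socs5 varied more within groups than between them. The 3 unstimulated control libraries held 0, 8 and 125 counts, that is 0, 0.906 and 17.5 CPM, and the 4 stimulated ones held 16.4, 0, 2.18 and 1.25 CPM. Unstimulated LTβRΔN libraries lay between 2.55 and 7.20 CPM and stimulated ones between 0 and 8.04 CPM. Its log2 fold changes with treatment, -0.30 in both genotypes, had 95% intervals of -3.23 to 2.63 and -2.99 to 2.39, and so did not bound its response usefully.

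Socs6 and Socs7 are the other long members, known mainly for binding insulin receptor substrates and receptor tyrosine kinases. Socs6 lay at 0.793 to 6.92 CPM in unstimulated and 0.624 to 8.11 CPM in stimulated control libraries, and at 0.773 to 6.40 and 0 to 7.18 CPM in the corresponding LTβRΔN libraries. Its log2 fold changes with treatment were 0.030 (95% interval -2.42 to 2.48) in control and -0.21 (-2.45 to 2.03) in LTβRΔN neutrophils. The ranges of Socs6 thus nearly coincided in all 4 groups.

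Socs7 was at 0.761, 2.15 and 3.51 CPM in unstimulated control libraries, and at 7.30, 5.69, 0 and 7.87 CPM in stimulated ones. Of the 4 stimulated libraries 3 were above all unstimulated ones, and replicate 3 had no count, which allows up to 3 counts or 0.297 CPM. Its log2 fold change in control neutrophils was 1.29 (95% interval -1.23 to 3.8, adjusted p = 0.851, edgeR), and in LTβRΔN neutrophils it was -0.48 (-2.64 to 1.68).

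Socs2, known as the inhibitor of growth hormone signaling, had 0 to 14 counts in a library and at most 1.73 CPM. It was at 0 in 4 of the 16 libraries, where a count of 0 allows up to 0.405 to 2.40 CPM, counting error only. In a fit that kept every gene with at least 1 count, its log2 fold changes with treatment were 0.38 (95% interval -3.21 to 3.97) in control and 1.89 (-1.55 to 5.33) in LTβRΔN neutrophils, and neither was called. A response of Socs2 was not detectable at this depth.

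The fitted spread between libraries was lower for the called members than for the other tested ones. The biological coefficient of variation, edgeR's estimate of the relative spread among libraries of one group, was 0.229 for Socs3, 0.303 for Socs1 and 0.305 for Cish, below the median of 0.432 over all tested genes. It was 0.503 for Socs4, 1.01 for Socs6 and Socs7 and 1.27 for Socs5. The 4 members that were not called thus had a spread above that of the median gene, which the widths of their intervals in the plot of fitted differences show. This coefficient is a single value per gene over all groups, from the same counts as the calls, and is no separate observation. Within unstimulated libraries Cish spanned 13.2-fold in LTβRΔN and 2.98-fold in control neutrophils. That was wider than Socs4, which spanned 2.29-fold and 1.25-fold in the same groups.

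Levels of different members were compared as CPM per kilobase of exon, which sets counts against gene length. Socs3 was by far the most abundant member in every group, with 366 ± 165 (SD, n = 3) in unstimulated and 5962 ± 853 (n = 4) in stimulated control neutrophils, and 511 ± 199 (n = 4) and 6185 ± 244 (n = 5) in LTβRΔN neutrophils. It made up 98.4 to 98.8% of the summed CPM per kilobase of the 8 members, as a mean in each of the 4 groups. Its library values did not overlap with those of any other member.

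The places below Socs3 changed with the treatment label. Cish stood 7th of 8 in unstimulated control neutrophils at 0.157 ± 0.091 CPM per kilobase and 2nd in stimulated ones at 67.7 ± 20.5. In LTβRΔN neutrophils Cish moved from 6th at 0.379 ± 0.372 to 2nd at 59.0 ± 17.6. In stimulated neutrophils of both genotypes the order was Socs3, Cish, Socs1 and Socs4, with no overlap of library values between Socs3 and Cish, Cish and Socs1, or Socs1 and Socs4.

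Socs1 was at 1.87 ± 0.484 CPM per kilobase in unstimulated control neutrophils, a level not separated from that of Socs4 at 2.27 ± 0.256. In unstimulated LTβRΔN neutrophils Socs1 was at 3.58 ± 1.08 and Socs4 at 1.44 ± 0.532. Their library values did not overlap, but the gap was small, with a lowest Socs1 value of 2.20 and a highest Socs4 value of 2.16. That lowest Socs1 value came from 8 counts. Below Socs4, neighbouring members overlapped in every group, except that Socs2 was below Cish in unstimulated control neutrophils. That separation rests on 1 to 9 counts of Socs2 and 4 to 22 of Cish per library, and on the exon lengths used. In unstimulated LTβRΔN neutrophils 2 of the 4 Socs2 values were counts of 0, whose upper limits reach into the range of Socs6, so that these members were not separated at this depth. Socs2 had the lowest mean in all 4 groups, at 0.015 to 0.067 CPM per kilobase. Using the longest transcript in place of all exons kept the order of the means in 3 groups and exchanged Cish and Socs6 in unstimulated LTβRΔN neutrophils.

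**Figure D3:**
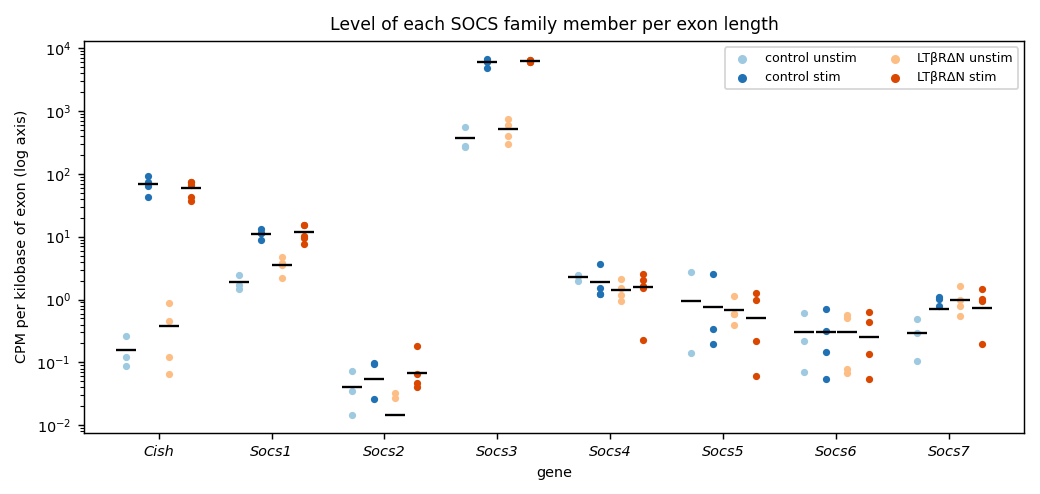
Level of each SOCS family member in CPM per kilobase of exon, on a log axis. Points are libraries, colored by group, and black bars are means of the 3 to 5 libraries; the 10 of 128 values at 0 cannot be drawn on a log axis but count in the means. Socs3 lies above all other members in each group, and Cish changes place from near the bottom in unstimulated to second in stimulated libraries.

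No member was called between the genotypes. In unstimulated neutrophils 0.0217% of tested genes differed between LTβRΔN and control libraries, and 0 of the 7 tested members passed edgeR's test, with 1, Socs1, at an unadjusted p under 0.05, as were 258 of all 9213 genes. In stimulated neutrophils the share was also 0.0217%, and 0 members passed, with 0 at an unadjusted p under 0.05, against 591 of all genes. DESeq2 called 0 members in both comparisons.

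Among unstimulated neutrophils Socs1 averaged 10.4 ± 3.14 CPM (SD, n = 4) in LTβRΔN and 5.45 ± 1.41 CPM (n = 3) in control libraries. Of the 4 LTβRΔN libraries 3 were above all 3 control libraries, and the fourth, at 6.40 CPM, lay within the control range. The log2 fold change was 0.97 (95% interval 0.23 to 1.71, unadjusted p = 0.0124, adjusted p = 1.0 in edgeR), and the exact permutation p was 0.0857, with 0.0286 the smallest possible. With S520 libraries alone, 4 against 2, the log2 fold change was 1.18 (adjusted p = 0.913). After stimulation Socs1 averaged 33.9 ± 10.5 CPM in LTβRΔN and 32.7 ± 5.30 CPM in control libraries, with a log2 fold change of 0.065 (-0.55 to 0.68).

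Socs3 averaged 1478 ± 576 CPM in unstimulated LTβRΔN (n = 4) and 1059 ± 476 CPM in unstimulated control libraries (n = 3), and the groups overlapped. Its log2 fold change was 0.48 (95% interval -0.012 to 0.98, unadjusted p = 0.0552) and was 0.91 (adjusted p = 0.795, edgeR) among S520 libraries alone. In stimulated neutrophils the log2 fold change of Socs3 was 0.053 with an interval of -0.38 to 0.48. A difference of the stimulated Socs3 level between the genotypes of more than 1.4-fold in either direction thus lay outside the interval.

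Cish averaged 2.44 ± 2.39 CPM in unstimulated LTβRΔN and 1.01 ± 0.587 CPM in unstimulated control libraries, a log2 fold change of 0.35 (95% interval -1.02 to 1.72). After stimulation it averaged 378 ± 113 CPM in LTβRΔN (n = 5) and 435 ± 132 CPM in control libraries (n = 4), a log2 fold change of -0.20 (-0.77 to 0.38). The libraries of the genotypes overlapped in both states.

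Socs7 was the 1 member whose genotypes did not overlap in unstimulated neutrophils, as held for 2.54% of tested genes in this direction. All 4 LTβRΔN libraries, at 5.72, 4.0, 12.0 and 7.07 CPM, were above the control libraries at 0.761, 2.15 and 3.51 CPM, and the nearest libraries were 1.14-fold apart. The log2 fold change of 1.77 had a 95% interval of -0.79 to 4.33 and was not called (adjusted p = 1.0, edgeR). The exact permutation p of 0.0286 was the smallest possible for 4 against 3 and was not adjusted for the 32 tests computed. In stimulated neutrophils the log2 fold change of Socs7 was 0.0068 (-2.17 to 2.18), with 1 library at 0 in each genotype.

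Socs4 averaged 9.93 ± 3.66 CPM in unstimulated LTβRΔN against 15.6 ± 1.76 CPM in unstimulated control libraries, a log2 fold change of -0.64 (95% interval -1.81 to 0.54). For Socs5 and Socs6 the genotype differences were -0.54 and -0.014 unstimulated and -0.55 and -0.25 stimulated on the log2 scale, and every interval extended more than 1.94 to each side of 0. Socs5 was 3.22 higher on the log2 scale in unstimulated LTβRΔN libraries when S520 libraries alone were compared (adjusted p = 0.913), since the control library with 125 counts bore S521.

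The response to treatment was then compared between the genotypes by the interaction term, which is negative where LTβRΔN neutrophils responded less. Of all tested genes 0% were called by edgeR, with 342 at an unadjusted p under 0.05 and 0 called by DESeq2, and 0 members were called by either or had an unadjusted p under 0.05. The interaction was -0.55 for Cish (95% interval -2.03 to 0.94), -0.91 for Socs1 (-1.86 to 0.046, unadjusted p = 0.0611) and -0.43 for Socs3 (-1.09 to 0.22). All adjusted p-values were 1.0 in edgeR. For Socs1 the LTβRΔN libraries had a smaller fold and a higher unstimulated mean, and the stimulated means differed by less than their SD. None of these differences between the genotypes was called, and a cause was not tested.

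**Figure D4:**
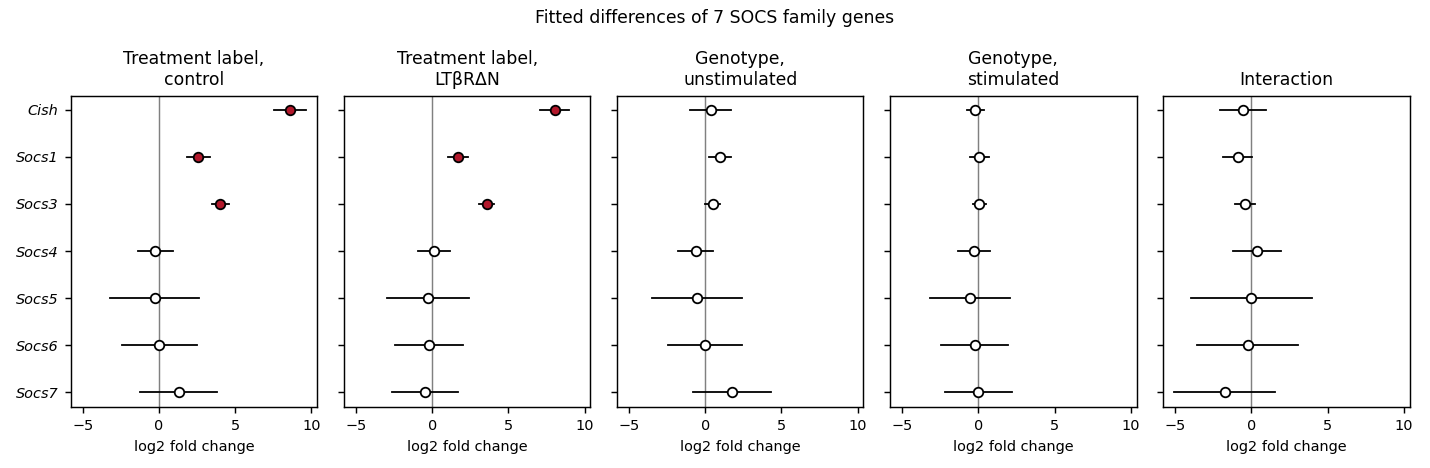
Fitted log2 fold changes of the 7 tested members in the 5 comparisons. Points are estimates and lines 95% intervals from the edgeR fit over 16 libraries, and filled red points have an adjusted p under 0.05. Cish, Socs1 and Socs3 are filled in both treatment comparisons, no point is filled in the genotype comparisons or the interaction, and the intervals of Socs5, Socs6 and Socs7 are the widest.

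The rest of the pathway was followed in lists of genes set beside the family. These lists were chosen with earlier results of these data known, so their counts are no test of the pathway. Of all tested genes edgeR called 2.82% higher in control and 2.98% higher in LTβRΔN neutrophils. STAT proteins carry the signal that SOCS genes answer. For their own transcripts 0 of the 7 genes were called in either genotype by edgeR or DESeq2, with 1 at an unadjusted p under 0.05 in each, and the medians were -0.078 and -0.14 on the log2 scale. Stat3 had log2 fold changes of -0.032 (95% interval -0.34 to 0.27) and 0.17 (-0.10 to 0.44). Of the 4 JAK kinases Jak2, the kinase of the GM-CSF receptor, rose with log2 fold changes of 1.32 (SE 0.237, adjusted p = 7.51e-04, edgeR) in control and 1.55 (SE 0.213, adjusted p = 2.22e-05, edgeR) in LTβRΔN neutrophils.

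Of the 16 tested cytokine receptor genes 3 rose in each genotype and 0 fell. Il10ra, the IL-10 receptor chain, rose by 2.49 in control and 2.06 in LTβRΔN neutrophils on the log2 scale, Il2rg, the common gamma chain, by 1.65 and 1.63, and Csf2rb, the signaling chain of the GM-CSF receptor, by 0.65 and 0.55. Csf2rb has the near-identical neighbor Csf2rb2, so its count is uncertain. The median over the 16 was 0.10 and 0.038.

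Among genes listed here as targets of STAT factors, 9 of the 25 tested rose and 0 fell in each genotype, with medians of 0.59 in control and 0.29 in LTβRΔN neutrophils. Those with the smallest adjusted p were Id1, an inhibitor of basic helix-loop-helix factors (4.10 and 3.48 on the log2 scale), and the kinase gene Pim1 (2.67 and 2.50). Irf1, an interferon regulatory factor, had log2 fold changes of 1.80 and 1.54, and the early response gene Egr1 had 3.08 and 2.78. DESeq2 called 10 of the 25 higher in each genotype, and 1 lower in control and 2 lower in LTβRΔN neutrophils. These genes are also targets of other factors.

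Of the 16 other tested inhibitors of JAK-STAT signaling 2 rose and 0 fell in each genotype, with medians of -0.023 and 0.14. Ptpn1, a phosphatase of JAK2 and TYK2, rose in both (0.68 and 0.62 on the log2 scale). Ptpn2, a phosphatase of JAK1 and STAT proteins, was called in control neutrophils (1.31, adjusted p = 0.0087, edgeR) and had 0.73 (adjusted p = 0.175) in LTβRΔN neutrophils. Ptpn11, which encodes SHP2, was called in LTβRΔN neutrophils (2.47, adjusted p = 0.012, edgeR) and had 0.39 (adjusted p = 0.933) in control neutrophils. The interaction was 2.08 for Ptpn11 (95% interval 0.42 to 3.73, unadjusted p = 0.0162, edgeR) and -0.58 for Ptpn2 (-1.39 to 0.22). Neither interaction was called (adjusted p = 1.0).

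The SOCS box joins SOCS proteins to elongins B and C, cullin 5 and Rnf7. Of the 10 tested genes of this ligase and its partners 2 rose and 0 fell in each genotype, Arih2, a ligase that works with cullin 5 (0.75 and 1.01 on the log2 scale), and Ube2f, which attaches NEDD8 to cullin 5 (1.08 and 0.84). Cul5 had log2 fold changes of -0.52 and -0.40, with standard errors of 1.07 and 0.967. Of 28 other genes whose products carry a SOCS box, 13 were tested and 0 were called by edgeR or DESeq2, with 1 at an unadjusted p under 0.05 in control and 0 in LTβRΔN neutrophils, and the medians were -0.16 and -0.33. Between genotypes and in the interaction edgeR called 0 genes of these lists, with 0 to 4 per list at an unadjusted p under 0.05, and DESeq2 called 1, a STAT target gene in unstimulated neutrophils.

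**Figure D5:**
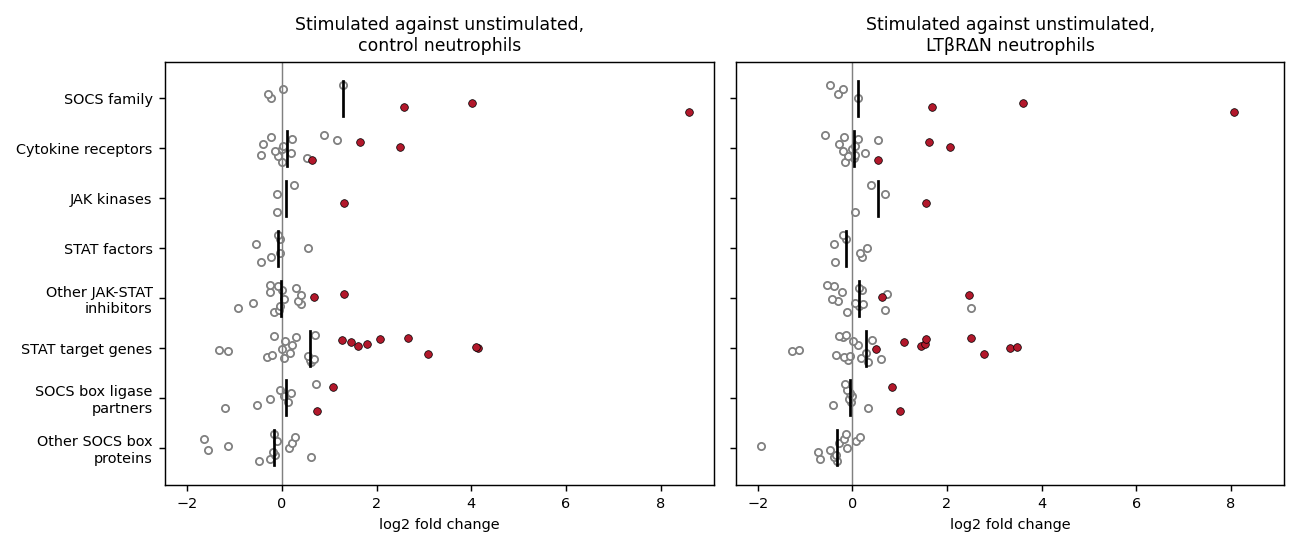
Log2 fold changes with the treatment label of the tested genes in the SOCS family and in 7 lists of the same pathway, in control (left) and LTβRΔN neutrophils (right). Points are genes, spread vertically by name, filled red points have an adjusted p under 0.05, and black bars are list medians. All filled points lie to the right of 0, and Cish at 8.60 and 8.05 is the farthest out.

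The genes whose levels most resembled those of the called members were found by Pearson's r of log2 CPM over the 16 libraries, which share index and treatment label, so that r takes in the step between the labels. For Cish these were Il23a (r = 0.987), Cd74 (0.986) and Serpinb2 (0.984). For Socs1 they were G0s2 (r = 0.977), Dusp2 (0.959) and Cdkn1a (0.958). For Socs3 they were Ier3 (r = 0.996), Cd14 (0.995) and the chemokine gene Cxcl2 (0.993). No gene appeared for more than 1 of the 3 members.

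The family was spread over 7 chromosomes on GRCm38. Cish lay at chr9:107296026-107302784, Socs1 at chr16:10782240-10785536, Socs2 at chr10:95385362-95417180 and Socs3 at chr11:117966079-117970047. Socs4 lay at chr14:47276931-47296102, Socs5 at chr17:87107679-87137839, Socs6 at chr18:88665224-88927481 and Socs7 at chr11:97362551-97398542. Socs3 and Socs7 share chromosome 11. Socs1 and Socs3 had the shortest exon lengths, 2908 and 2891 bases, and the other members had 6416 to 11349 bases. Cish had 6419 bases.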

How the data were processed

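Neutrophil libraries were assigned to genotype and treatment from the labels, and the columns of the table were matched to them by library number. The deposited values were integer read counts by gene symbol in a single table, without normalization; per the submitters' processing notes the tools were TopHat 1.4.1, Bowtie 1.0.0 and HTSeq 0.7.1 and the build was mm10. Sequencing was single-end; the annotation, the strand setting and the authors' statistical test are not given in the sources used here. Library totals were 1094335 to 11932653 counts, which limits precision for genes of low level. Intervals and limits for counts of 0 cover counting error only where so stated.

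Genes were kept by filterByExpr (minimum count 10, minimum total 15), which left 9213 of 23337 symbols and 7 of the 8 members. The fit used edgeR 4.0.16 under R 4.3.3 with TMM factors, 1 coefficient per group over 16 libraries, the quasi-likelihood test and Benjamini-Hochberg adjustment over all tested genes at 0.05. Standard errors were derived from the F statistic and 95% intervals from its degrees of freedom. CPM values used the same TMM factors, and exact two-sided permutation tests used log2(CPM + 0.5). Exon lengths came from GENCODE M21 on GRCm38, in which 89.5% of symbols were found, and promoters from RefSeq. The test was first run on simulated counts for 9213 genes. For the treatment comparison in control neutrophils it recovered 28% of 200 genes changed 2-fold and 58.5% of 200 changed 4-fold. Within groups no library repeated another, since the 25 within-group pairs gave a chi-square of 7.12 to 50.4 relative to the degrees of freedom.

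The members, pathway lists and marker lists were chosen with earlier results of these data known. Named besides the members are Ltbr, at most 4 genes per list with the smallest adjusted p among those called with treatment, and the 3 genes most like each called member. Cul5 and Stat3 were named after their values were seen. Of the marker symbols, Ly6g, Chil3, Ighm, Trac, Hbb-bs, Hbb-bt and Siglecf had no row under that name. Alternatives were other scalings, filters, samples, thresholds and covariates, DESeq2 1.42.0, and leaving out each library in turn.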

Additional observations from a re-analysis of the deposited data

Results flagged for a closer look

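Each group of 4 or 5 libraries was examined for a single value of a member that stood far from the others, with Dixon's 95% limit on the log2(CPM + 0.5) scale. Of 24 such groups of values 2 had one, and chance gives about 1 in 20. Socs4 was at 1.55 CPM, from 4 counts, in stimulated LTβRΔN replicate 5, while the other 4 libraries of the group lay between 10.6 and 17.5 CPM. Socs7 was at 0 CPM in stimulated control replicate 3, whose total was among the highest of the series at 11023928 counts, while the other 3 libraries of the group lay between 5.69 and 7.87 CPM. On this scale the distance of low values depends on the 0.5 added. On CPM itself neither passed the limit, with gaps of 0.566 (Socs4) and 0.724 (Socs7) of the group's range, and 2 other values did, both in stimulated control replicate 1: Socs4 at 25.4 CPM against 8.32 to 10.5 CPM, and Socs5 at 16.4 CPM against 0 to 2.18 CPM. None of these values enters a called result.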

How the results depend on the processing

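Cish and Socs3 stayed called with treatment in both genotypes under every alternative that tested them with more than 1 library per compared group. For LTβRΔN neutrophils the fit with the index is no separate check, because index and treatment cannot be told apart there. Its index term comes from control libraries. Over all alternatives the log2 fold changes of Cish and Socs3 were 8.36 to 9.54 and 3.42 to 4.45 in control and 7.41 to 9.23 and 2.56 to 3.83 in LTβRΔN neutrophils. Socs1 lost its call with the index as a covariate (2.21 and 1.09), which rests on unstimulated control replicate 3, and otherwise kept it. Within S521 its log2 fold change was 2.21, and calls of that fit are not counted because it holds 1 unstimulated library. With at least 10 counts demanded in every library, members called with treatment fell to 1 in each genotype, because Cish and Socs1 were no longer tested. Leaving out each library in turn left 3 members called with treatment in both genotypes and 0 elsewhere.

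Genes called over the whole table with treatment numbered 157 with the index as a covariate and 153 within S521 in control neutrophils, and 79 with the index and 209 with a 2-fold minimum in LTβRΔN neutrophils. Between unstimulated genotypes they numbered 4 with every gene of at least 1 count, 1 with 10 counts in every library and 4 in DESeq2, between stimulated genotypes 1 and 14 under the last pair, and for the interaction 1 with the index. With 1 library left out they ranged from 219 to 334 and from 266 to 392 with treatment (control, LTβRΔN), from 2 to 6 and from 2 to 2 between genotypes (unstimulated, stimulated), and from 0 to 2 for the interaction. The 6 and the 2 came without unstimulated control replicate 1. The causes were not tested.

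No called member changed sign. Among log2 differences that were not called, Socs6 with treatment in control neutrophils became -0.021 with upper-quartile factors, -0.20 with library totals and -0.20 with the replicate block, and in LTβRΔN neutrophils 0.40 with the index. Socs4 with treatment in LTβRΔN neutrophils became -0.052 with library totals and -0.046 without both libraries under 1600000 counts, an alternative chosen after seeing the data, in which Socs5 became 0.19 and Cish between unstimulated genotypes -0.025. The Socs5 interaction became 0.026 with upper-quartile factors, 0.85 with the replicate block and 0.48 without the shallow libraries. Between unstimulated genotypes Socs5 became 3.22 with the index and 3.22 within S520, and Socs6 became 0.0022 in DESeq2.

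With 1 library left out, differences that were not called changed sign in 16 comparisons of members, none of them for a called result. With treatment in control neutrophils Socs5 ranged from -2.34 to 3.44, the latter without unstimulated control replicate 3, and Socs6 from -0.80 to 1.07. With treatment in LTβRΔN neutrophils the ranges were -0.11 to 0.41 for Socs4, -1.02 to 0.0058 for Socs5 and -0.98 to 0.25 for Socs6. Between unstimulated genotypes they were -0.19 to 1.01 for Cish, -1.13 to 3.21 for Socs5 and -0.47 to 1.03 for Socs6. Between stimulated genotypes they were -0.067 to 0.18 for Socs1, -0.038 to 0.12 for Socs3, -0.51 to 0.26 for Socs4, -1.26 to 1.5 for Socs5, -1.02 to 0.58 for Socs6 and -0.44 to 0.36 for Socs7. The interaction ranged from -3.77 to 2.03 for Socs5 and from -1.28 to 0.59 for Socs6.

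Scaling by library totals moved the median log2 fold change of all genes with treatment from -0.024 to -0.27 in control and from -0.028 to -0.21 in LTβRΔN neutrophils. The replicate block used a second number in the column names, whose meaning is not stated. Deviations of the 7 pairs of libraries that shared it correlated at 0.0214 to 0.0694, none over 0.1, against -0.0489 to 0.0298 for 25 other pairs, though 13 of 14 libraries correlated best with their own number. With the block 324 and 343 genes and 3 and 3 members were called with treatment. Of the levels per kilobase 8 of 32 moved by more than their SD when the longest transcript was used, and of the levels in CPM 1 of 32 did with library totals. Members at a few counts per library, Socs2 above all, are limited by depth.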
